A study of Mus musculus with 4 samples.

Results

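The measurement described here is how differently control and Drp1LiKO hepatocytes responded to palmitate. For each gene it is the palmitate response of Drp1LiKO cells minus the palmitate response of control cells. Each response is the level under palmitate minus the level without it, on the log2 scale, where 0 is the 75th percentile of the array and 1 unit is 2-fold. A positive difference means a more upward response in Drp1LiKO and a negative one a more upward response in control. A gene entered when a probe lay well above background on all 4 arrays by the scanner's own flag, and 16619 of the 37074 gene names on the array did so. Where several probes of a gene qualified, the one with the highest mean was used.

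The 4 arrays hold RNA of cultured primary mouse hepatocytes, with 1 array for each genotype left untreated and 1 for each genotype given 200 μM palmitate. Drp1LiKO mice carry floxed Dnm1l alleles and Cre under the albumin promoter, which acts in hepatocytes. Macrophages and endothelial cells left in a culture keep the gene. Control mice carry the floxed alleles without Cre, and the study used male animals. The labels state that cells were harvested 24 hours after seeding, and the animals and their age behind each culture are not given in the sources used here. With 1 array per group there was no replicate, so no difference below has a replicate error or a test. Another series holds the same raw data as the untreated control array. Both untreated arrays lie on 1 slide and both palmitate arrays on another, so a response holds slide as well as treatment, while an additive slide effect on a probe cancels in the difference of responses.

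Drp1, encoded by Dnm1l, is the GTPase that constricts and divides mitochondria. Palmitate is a saturated fatty acid that loads hepatocytes with lipid and can trigger stress and inflammatory signalling. Among the signals it can reach are NF-kB, which drives cytokine and chemokine genes, and interferon signalling, which switches on antiviral genes.

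Dnm1l stood at 2.42 in control and 1.07 in Drp1LiKO without palmitate, and at 2.43 and 1.01 with it. It was lower in Drp1LiKO by 1.35 log2 units without and 1.42 with palmitate, as the labels require, and its palmitate responses were 0.01 in control and -0.06 in Drp1LiKO. Gapdh, a glycolytic enzyme often used as a reference, had a difference of responses of -0.03. The summed level of 21 hepatocyte markers, in multiples of the 75th percentile, was 2625, 2634, 2583 and 2649 in the same order of arrays.

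Most genes responded alike in both genotypes. The difference of responses was under 0.5 in size for 15005 genes, 90.3% of those measured, and its median was -0.00. It was at least 1 in size for 297 genes, 1.79% of the 16619, of which 145 (0.872%) had the higher response in Drp1LiKO and 152 (0.915%) the lower. For comparison, 1.0% of genes had a response of at least 1 in size in control and 1.86% in Drp1LiKO. The median error of a difference from the scanner's own error model was 0.29, and the SD of a difference between repeat spots of a probe was 0.05, and neither holds the spread between animals or cultures.

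The genes below 1 in difference include some with the largest responses of all. Hspa1a and Hspa1b, the inducible Hsp70 chaperones, were 27.9-fold and 8.93-fold higher with palmitate in control and 14.2-fold and 8.52-fold in Drp1LiKO. Their differences of responses were -0.97 and -0.07. Cebpd, an acute phase transcription factor, had responses of 1.37 in control and 1.55 in Drp1LiKO, and Ddit3 and Nupr1, which mark the integrated stress response, had differences of 0.47 and 0.37. The second Ddit3 probe gave -0.40, so the direction for Ddit3 depends on the probe.

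**Figure D1:**
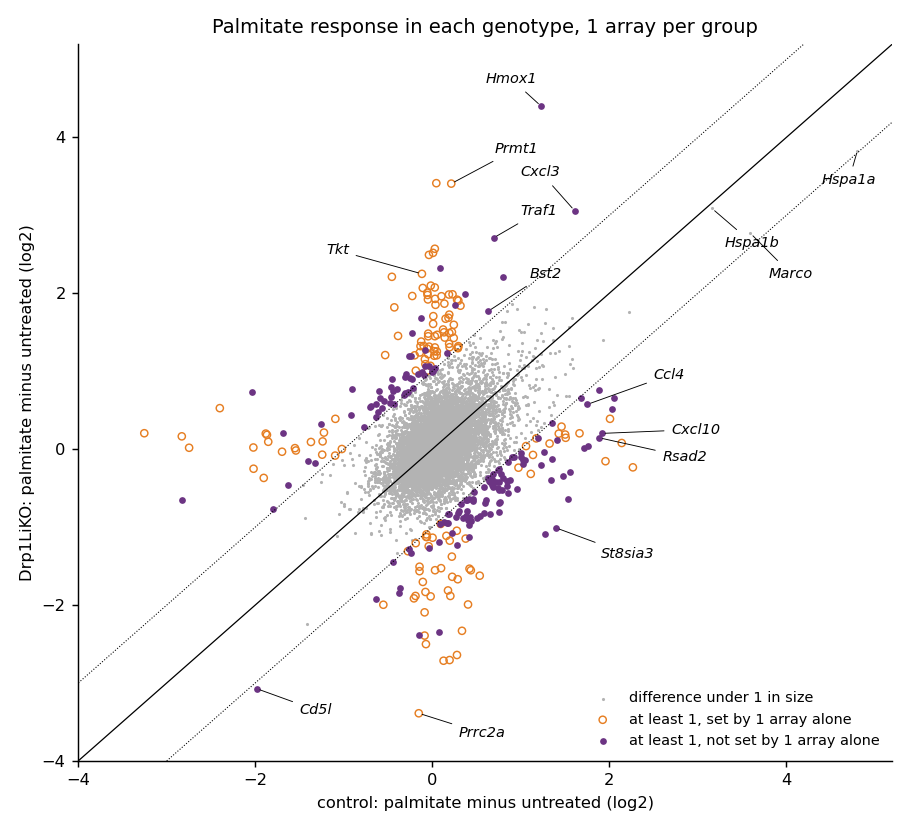
Palmitate response in control (x axis) and in Drp1LiKO (y axis), in log2 units, for the 16619 genes measured on all arrays, 1 array per group. The solid line marks equal responses and the dotted lines a difference of 1. Orange circles are genes with a difference of at least 1 that 1 array alone sets, and purple points are the others. Hmox1, Traf1 and Cxcl3 lie above the lines, and Rsad2, Cxcl10, Ccl4 and St8sia3 below them.

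Interferon-stimulated genes leaned towards a smaller response in Drp1LiKO. Of 40 measured antiviral effectors, 30 had a difference below 0, against 50.4% of all genes measured, and their median was -0.34 against -0.00. The effectors' median response was 0.59 in control, where 40 of 40 were above 0, and 0.27 in Drp1LiKO, where 33 were. At the 2-fold size 3 of the 40 effectors were lower and 1 was higher in response, against 0.915% and 0.872% of all genes measured. Rsad2, Mx2 and Ifit1 were the lower ones and Bst2 the higher one.

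The starting level differed most. Rsad2, which encodes viperin, an antiviral radical SAM enzyme, stood at -2.45 on the untreated control array and at 2.98 on the untreated Drp1LiKO array. With palmitate it stood at -0.57 in control and 3.13 in Drp1LiKO. It was 3.69-fold higher with palmitate in control and 1.11-fold in Drp1LiKO, so the difference was -1.74. The 2 Drp1LiKO arrays both lay above both control arrays, before and after palmitate. A second Rsad2 probe kept that order of genotypes but gave responses of 0.20 and 0.09 and a difference of -0.11, so the size of the Rsad2 difference rests on 1 probe.

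Cxcl10, an interferon-induced chemokine that draws T cells, stood at 0.24 in untreated control, 3.76 in untreated Drp1LiKO, 2.15 in control with palmitate and 3.96 in Drp1LiKO with palmitate. Its responses were 3.77-fold in control and 1.15-fold in Drp1LiKO, so the difference was -1.71. Here too control moved up towards a level that Drp1LiKO cells held without palmitate, and it stayed 1.81 log2 units below the Drp1LiKO palmitate array. A dimmer Cxcl10 probe lay in background on both control arrays and gives no check of this value.

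Mx2, an interferon-induced dynamin-like GTPase, had responses of 1.00 in control and -0.05 in Drp1LiKO, and Ifit1, which binds viral RNA, had 1.35 and 0.34. Oasl2, a member of the family that senses double-stranded RNA, had 1.67 and 0.66. Their differences were -1.05, -1.01 and -1.01, at the edge of the 2-fold size, and each fell short of it under another background correction or under quantile normalization. Rtp4, an interferon-induced receptor transporter, lay just inside 2-fold at -0.95, with responses of 1.19 and 0.24. Ifi44, another interferon-induced gene, was lost in background in untreated control, which makes its control response at least 2.05 against 0.58 in Drp1LiKO and its difference -1.47 or lower.

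Bst2, or tetherin, which holds budding viruses at the cell surface, went the other way. It stood at 4.68 in untreated control, 4.46 in untreated Drp1LiKO, 5.31 in control with palmitate and 6.23 in Drp1LiKO with palmitate. Its response was 1.55-fold in control and 3.41-fold in Drp1LiKO, so the difference was 1.14. Unlike Rsad2 and Cxcl10, it started at nearly the same level in both genotypes.

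The other interferon lists had medians on the same side, beside 50.4% of all genes measured with a difference below 0. Of 15 measured interferon-inducible GTPases, which attack pathogen vacuoles, 14 had a difference below 0, the median was -0.25, and none reached 2-fold. Of 10 oligoadenylate synthetase genes, which activate RNA decay, 6 (60%) were below 0, close to the share of all genes. Their median difference was -0.20, with median responses of 0.48 in control and 0.45 in Drp1LiKO. Oas1g and Oas1d lay above 0 at 0.53 and 0.68. Of 29 signalling factors and nucleic acid sensors 21 were below 0, with Dhx58, an RNA sensor, at -0.90. Socs3, a feedback inhibitor of cytokine receptors, was the exception at 2-fold with a difference of 1.18, which the Drp1LiKO palmitate array alone sets. Tlr3, a double-stranded RNA receptor in the list of Toll-like receptors, had a difference of -1.49, with levels between -4.26 and -3.42 that lie close to background. Under the other background correction Tlr3 fell short of 2-fold.

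**Figure D2:**
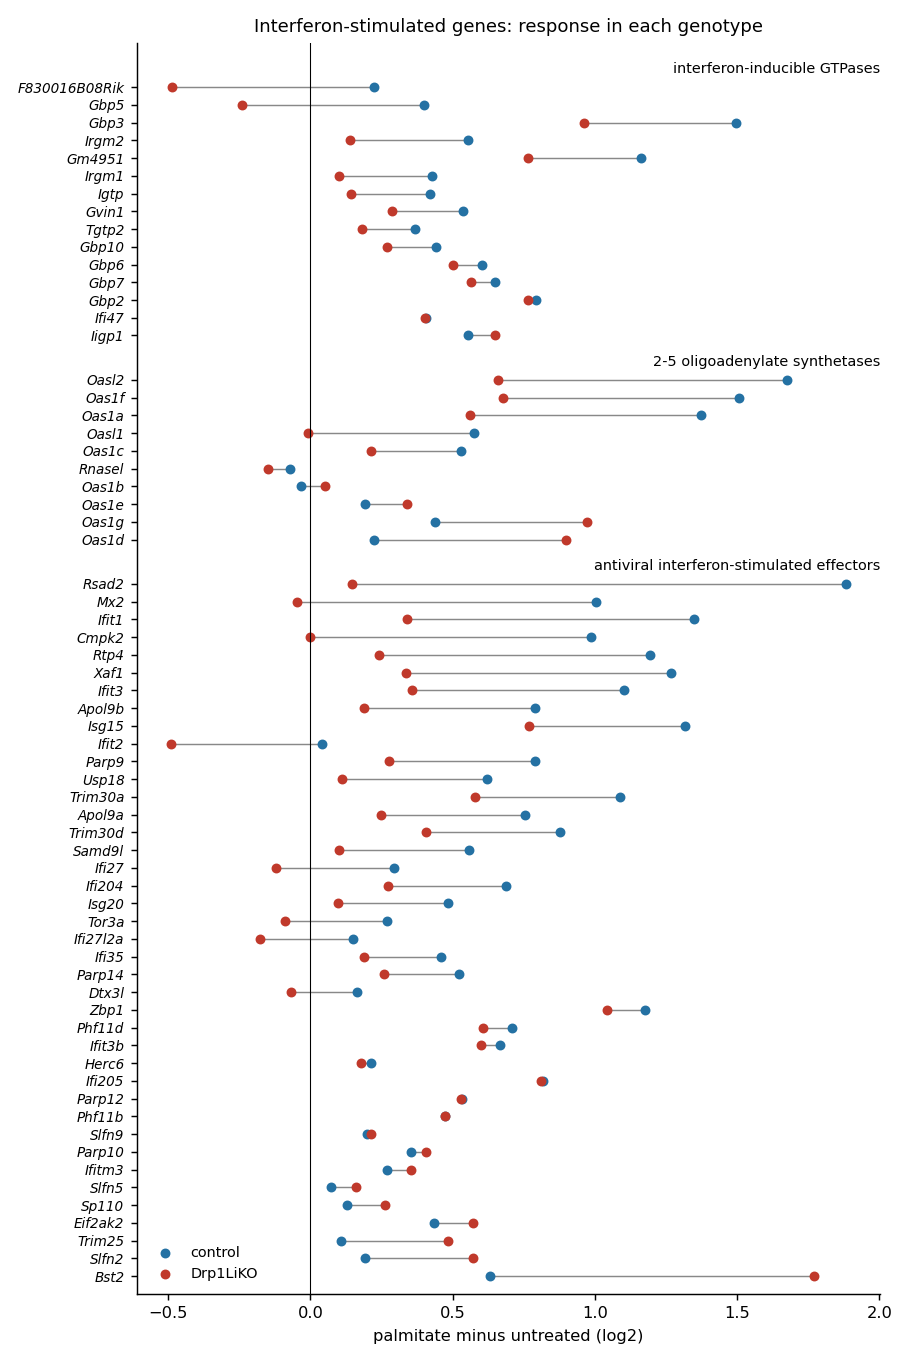
Palmitate response (x axis, log2) of each measured member of 3 interferon gene lists in control (blue) and Drp1LiKO (red), 1 array per group, with a line joining the pair. Blue lies to the right of red for 14 of 15 GTPases and 30 of 40 effectors, and Bst2 at the bottom shows the reverse order.

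Promoters of members that share this pattern are shown because interferon factors bind the ISRE, a repeated GAAA element. The search took GAAANNGAA on both strands in the 250 bases before the gene start, in RefSeq promoters of GRCm38.p6, where it is found in 7.13% of all 32851 entries. It was found for 15 of the 29 measured effectors with an entry and for 8 of the 9 GTPases with one. A gene with several entries was counted when any of them held a match, while the 7.13% counts each entry. The list counts and the 7.13% are therefore not in the same unit. Rsad2, Cxcl10 and Ifit1 are shown as members with the lower response in Drp1LiKO, and Bst2 as the member with the higher response. Cxcl3, described below, is shown for GGNNTTTCC, a kB-type element read on both strands and found in 4.93% of entries. The 2 elements can overlap in their TTTC letters. Capitals mark the ISRE-type matches in Rsad2, Cxcl10, Ifit1 and Bst2 and the kB-type match in Cxcl3. Rsad2 and Cxcl10 hold a kB-type match too, left in lower case. All sequences run 5′ to 3′ towards the gene start.
Rsad2, minus strand, chr12:26456453-26456702: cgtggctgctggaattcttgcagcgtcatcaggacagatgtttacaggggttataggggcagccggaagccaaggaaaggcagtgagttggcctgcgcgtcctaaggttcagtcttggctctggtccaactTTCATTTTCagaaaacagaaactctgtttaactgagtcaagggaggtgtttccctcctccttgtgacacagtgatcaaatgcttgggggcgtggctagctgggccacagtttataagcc
Cxcl10, minus strand, chr5:92348890-92349139: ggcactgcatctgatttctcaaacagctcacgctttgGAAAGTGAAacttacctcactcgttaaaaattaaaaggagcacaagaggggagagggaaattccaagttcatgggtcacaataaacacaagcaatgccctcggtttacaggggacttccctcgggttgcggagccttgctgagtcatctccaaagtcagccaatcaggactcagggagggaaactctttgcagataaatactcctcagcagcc
Ifit1, plus strand, chr19:34640639-34640888: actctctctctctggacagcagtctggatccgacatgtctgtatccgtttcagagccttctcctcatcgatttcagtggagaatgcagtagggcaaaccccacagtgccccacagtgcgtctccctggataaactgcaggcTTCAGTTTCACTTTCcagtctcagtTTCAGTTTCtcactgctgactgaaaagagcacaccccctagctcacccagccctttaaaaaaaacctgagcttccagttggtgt
Bst2, minus strand, chr8:71537473-71537722: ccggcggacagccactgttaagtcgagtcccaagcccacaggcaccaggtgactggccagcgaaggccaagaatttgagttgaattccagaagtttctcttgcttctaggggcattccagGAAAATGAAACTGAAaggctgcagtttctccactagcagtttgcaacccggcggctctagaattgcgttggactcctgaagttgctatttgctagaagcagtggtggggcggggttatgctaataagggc
Cxcl3, plus strand, chr5:90785851-90786100: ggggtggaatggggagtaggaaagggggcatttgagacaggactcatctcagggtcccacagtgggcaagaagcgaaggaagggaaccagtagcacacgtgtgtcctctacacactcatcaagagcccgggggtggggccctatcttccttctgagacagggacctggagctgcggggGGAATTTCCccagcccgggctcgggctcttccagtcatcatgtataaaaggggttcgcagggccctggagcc

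The match begins at position -119 in Rsad2, at -213 in Cxcl10 and at -72 in Cxcl3, counted from the gene start. Ifit1 holds 3 matches, the first at -109 and the next at -103, and Bst2 a pair that overlap at -130 and -124. Bst2 therefore holds the same letters as Rsad2, Cxcl10 and Ifit1 while its difference of responses has the opposite sign. The Oasl2 window holds no match. A match is a description of the letters, and binding was not measured here.

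Cytokine and NF-kB genes leaned the opposite way. Of 16 measured cytokines and activation enzymes 14 had a difference above 0, with a median of 0.25, and of 24 NF-kB subunits, inhibitors and adhesion targets 19 were above 0, with a median of 0.24, against 49.6% of all genes measured. The cytokine list's median response was 0.19 in control and 0.48 in Drp1LiKO, and that of the NF-kB list was 0.14 and 0.36. Only 1 gene of each list reached 2-fold, each with the higher response in Drp1LiKO, against 0.872% of all genes measured. Il17ra, the one among the cytokine genes, is set by the untreated Drp1LiKO array alone. It fell short of 2-fold under the other background correction. Of 13 NF-kB genes with another measured probe, 6 gave the same sign with it, against 3270 of 5577 among all genes measured. Those other probes were below 0 for 4 of the 13, with a median of 0.20. For the antiviral effectors 11 of 14 gave the same sign.

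Traf1, an adaptor of TNF receptors and a target of NF-kB, had the largest difference among these genes. It stood at -2.38 in untreated control, -3.30 in untreated Drp1LiKO, -1.69 in control with palmitate and -0.59 in Drp1LiKO with palmitate. Its response was 1.62-fold in control and 6.55-fold in Drp1LiKO, so the difference was 2.02. The untreated Drp1LiKO array was the lowest of the 4 and the Drp1LiKO palmitate array the highest.

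Cxcl3, a chemokine that draws neutrophils, stood at -4.63 in untreated control, -3.71 in untreated Drp1LiKO, -3.02 in control with palmitate and -0.65 in Drp1LiKO with palmitate. It was higher with palmitate in both genotypes, by 3.05-fold in control and 8.34-fold in Drp1LiKO, so the difference was 1.45. Its close relative Cxcl1 had responses of 1.08 and 1.60 and a difference of 0.52. Cxcl2 lay below the background limit in untreated Drp1LiKO, which makes its Drp1LiKO response at least 1.87 against 0.84 in control and its difference 1.04 or higher. Cxcl5, a ligand of the same receptor, did not share this: it lay in background in untreated control, and its responses of at least 3.29 in control and 3.16 in Drp1LiKO put its difference at -0.14 or lower. The untreated levels of Cxcl2 and Cxcl3 lay near background.

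Mmp9, a gelatinase listed with neutrophil markers, had responses of 0.37 in control and 1.99 in Drp1LiKO, so the difference was 1.63. Its highest level was -2.55, on the Drp1LiKO palmitate array, and under the other background correction it fell short of 2-fold. Neutrophil markers proper could not carry a comparison, since 3 of 13 were measured on all arrays, and S100a8, S100a9, Ly6g and Mpo were not among them. The summed level of the other 2 measured ones, Csf3r and Elane, ranged from 35.4 to 42.3 across the arrays. S100a8 lay in background on both untreated arrays and stood at -3.95 in control and -1.56 in Drp1LiKO with palmitate. Ly6g lay in background on both control arrays and stood at -2.46 without and -2.75 with palmitate in Drp1LiKO. Neither allows a limit on its difference. The part of neutrophils in the Mmp9 value was not tested.

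Il1b and Il6, main cytokines of acute inflammation, lay below the background limit in untreated control, so only limits can be given. Il1b was higher with palmitate by 3.47 log2 units in Drp1LiKO and by at least 2.83 in control, so its difference was at most 0.64. Il6 was higher by 3.44 in Drp1LiKO and by at least 1.37 in control, so its difference was at most 2.07. Tnf had responses of 0.37 and 0.55 and a difference of 0.18 on its main probe. Its second probe disagreed, with levels of -2.98 and -4.72 without palmitate in control and Drp1LiKO, -3.09 in Drp1LiKO with palmitate and a background value in control with palmitate, which puts the difference at 2.82 or higher, so the size for Tnf depends on the probe. For Il1b a difference of 2-fold or more towards Drp1LiKO lies outside the limit.

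Chemokines did not move as 1 group. Ccl4, which draws monocytes and other leukocytes, stood at -4.07 in untreated control, -0.03 in untreated Drp1LiKO, -2.32 in control with palmitate and 0.55 in Drp1LiKO with palmitate. Its difference was -1.18, with responses of 1.75 in control and 0.57 in Drp1LiKO, and its second probe gave -1.30. Like Rsad2 and Cxcl10 it started high in Drp1LiKO. Under the other background correction it fell short of 2-fold. Ccl4 is 1 of 3 genes lower in response whose probes all gave a difference of at least 1.

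Ccl2, the main monocyte chemokine, had a difference of 0.51 with the untreated Drp1LiKO array the lowest, and Ccl7, its neighbour in the same gene cluster, had -0.46 with the untreated control array the lowest. Ccl5 had -0.34 and Ccl9 0.34. Ptgs2, the inducible cyclooxygenase, had a difference of -0.73 and stood apart from the other cytokine list members with Csf2 at -0.37.

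**Figure D3:**
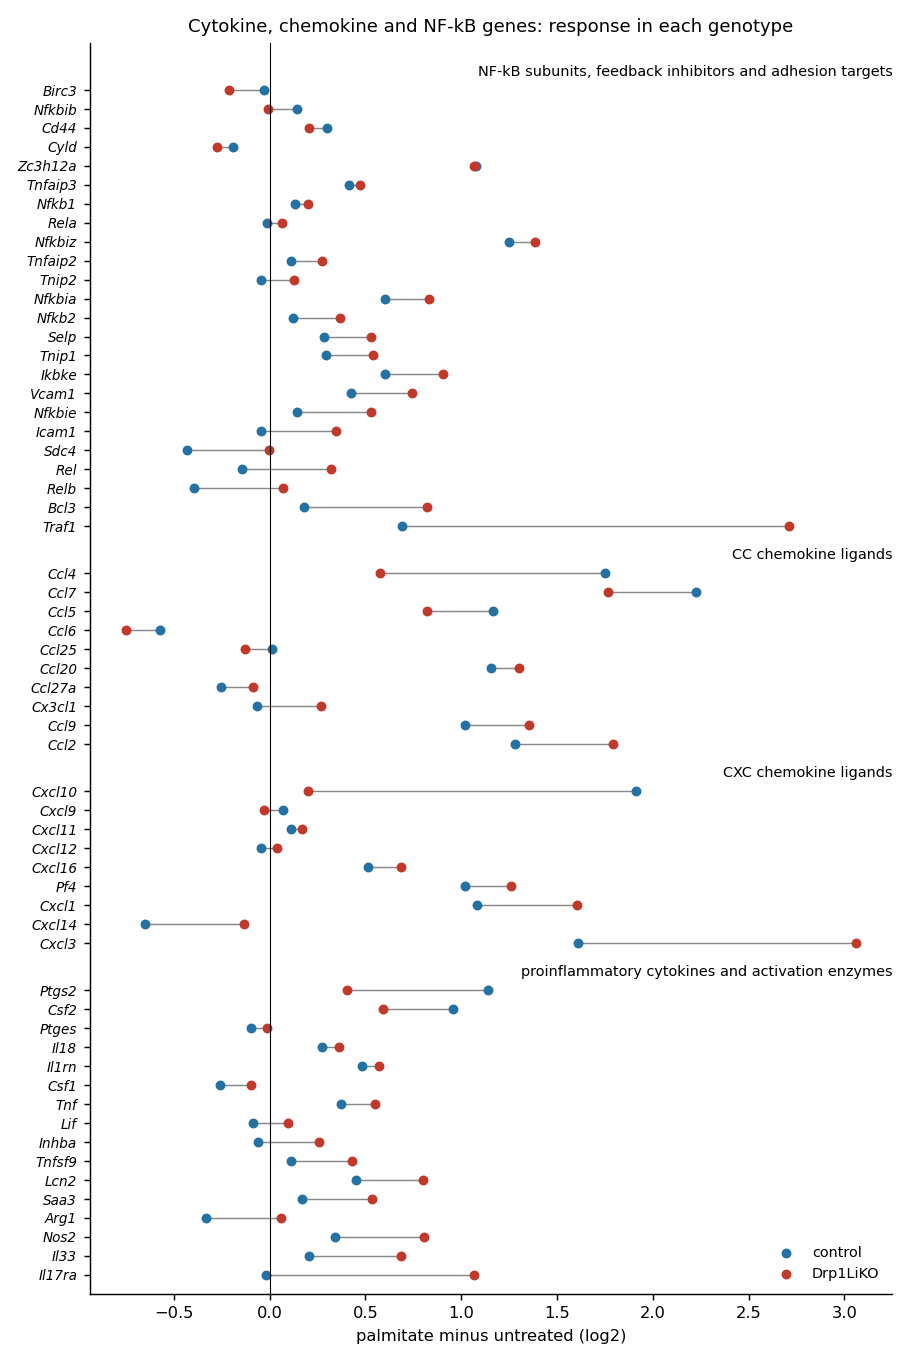
Palmitate response (x axis, log2) of each measured member of 4 inflammatory gene lists in control (blue) and Drp1LiKO (red), 1 array per group. Red lies to the right for 19 of 24 NF-kB genes and 14 of 16 cytokine genes, while Cxcl10 and Ccl4 show blue far to the right.

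Hmox1, heme oxygenase, which degrades heme and is induced by oxidative stress, had the largest difference among genes that did not rest on 1 array alone. Its probe lies at chr8:77624406-77624466 in mm9. It stood at 3.20 in untreated control, 0.36 in untreated Drp1LiKO, 4.43 in control with palmitate and 4.77 in Drp1LiKO with palmitate. Its response was 2.34-fold in control and 21.2-fold in Drp1LiKO, so the difference was 3.17. The palmitate arrays lay 0.34 apart, so nearly all of the difference came from the untreated Drp1LiKO array being 2.83 below untreated control. The other Hmox1 probe lay in background on both control arrays, so the value rests on 1 probe.

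The rest of the Nrf2 antioxidant genes did not share it. Of 34 measured targets 21 (61.8%) had a difference below 0, against 50.4% of all genes measured, and the median was -0.04. The only other one at 2-fold was Tkt, transketolase, which is set by 1 array. Of all genes measured 0.872% had a higher response of that size. Gclm and Gclc, the subunits of the enzyme that starts glutathione synthesis, had responses of 0.64 and 0.47 in control and 0.06 and 0.11 in Drp1LiKO. Their differences were -0.58 and -0.36, and Srxn1, which repairs peroxiredoxins, had -0.34. Nqo1, a quinone reductase that serves as a standard readout of Nrf2, had -0.15.

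Markers of macrophages and endothelium moved with the genotype, and lower responses in Drp1LiKO were frequent among them. Of 12 measured Kupffer cell and macrophage markers 11 had a difference below 0, against 50.4% of all genes measured, with a median of -0.45. Without palmitate 12 of 12 were higher in Drp1LiKO, and with it 11 were. Clec4f, Timd4 and Vsig4, which define Kupffer cells, and the C1q genes were not measured on all arrays. In bulk RNA fewer cells of a type and less RNA per cell cannot be told apart.

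Cd5l, a secreted macrophage protein, stood at -1.45 in untreated control, 1.38 in untreated Drp1LiKO, -3.44 in control with palmitate and -1.69 in Drp1LiKO with palmitate. It was lower with palmitate in both genotypes, by 1.99 in control and 3.07 in Drp1LiKO, so the difference was -1.09. Marco, a scavenger receptor of the same cells, was instead 12.1-fold higher with palmitate in control and 6.82-fold in Drp1LiKO, so the difference was -0.82. Aif1, a calcium-binding protein of macrophages, had -1.08, with its control levels of -4.11 and -3.52 close to background and its Drp1LiKO levels of -0.73 and -1.22 well above it. The Aif1 value fell short of 2-fold under the other background correction, under quantile normalization and with the authors' values. Of the 12 measured macrophage markers 11 thus had a negative difference, while their responses ran both up and down. C1qc, in background in control with palmitate, had a difference of 0.07 or higher. For C1qa and C1qb the limits, -0.66 or higher and -0.14 or higher, do not fix the sign.

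The summed level of the 12 macrophage markers was 256 in untreated control, 296 in untreated Drp1LiKO, 254 in control with palmitate and 309 in Drp1LiKO with palmitate, in multiples of the 75th percentile. Lgals3, a galectin that other cells also make, stood between 7.84 and 8.04 on every array and made up most of that sum. Without it the sums were 18.4, 47.8, 24.3 and 46.4. With palmitate the sum without Lgals3 was higher in control and slightly lower in Drp1LiKO, the same sign as the list's median difference, while the sum with it ran the other way. The median marker was higher in Drp1LiKO by 2.29 log2 units without palmitate and by 1.65 with it. The number of the 25 listed markers well above background was 16, 22, 12 and 19. Of the 11 measured sinusoidal endothelial markers, 9 had a difference below 0, against 50.4% of all genes measured. Their summed levels were 10.8, 17.4, 9.68 and 14.6. Both sets were higher on the Drp1LiKO arrays, as were the interferon genes, and macrophages and endothelium also express interferon-stimulated genes. The part of these cells in the interferon and Ccl4 values was not tested.

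Lpl, lipoprotein lipase, and Gpihbp1, its anchor on endothelium, had differences of -1.29 and -1.02. Lpl stood at -1.95 in untreated control, 0.14 in untreated Drp1LiKO, -2.59 in control with palmitate and -1.78 in Drp1LiKO with palmitate, and another Lpl probe gave -0.14. Gpihbp1 fell short of 2-fold under the other background correction. Lpl and Gpihbp1 were highest on the untreated Drp1LiKO array, which alone sets the Gpihbp1 value. Cldn4, a tight junction protein listed with bile duct markers, and Areg, an EGF receptor ligand, had the same shape, with levels on that array 2.29 and 2.19 above untreated control and differences of -1.41 and -1.09.

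Cell cycle genes had small differences, mostly of 1 sign. Of 48 measured mitotic genes 35 had a difference above 0, against 49.6% of all genes measured, and their median difference was 0.14. Their median response was 0.06 in control and 0.21 in Drp1LiKO. They were lower in Drp1LiKO by a median of 1.60 log2 units without palmitate and 1.48 with it. Ska1, which ties microtubules to kinetochores, was the only one at 2-fold, at 1.36, with its levels of -4.47 and -3.19 in Drp1LiKO close to background. Under the other background correction Ska1 fell short of 2-fold. Mki67, the standard proliferation marker, had a difference of 0.20. Cdc25c and Kif18a, listed mitotic genes in background in Drp1LiKO with palmitate, had differences of at most -0.67 and -0.19. For Kif11, dim on the same array, the limit of at most 0.36 does not fix the sign.

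Metabolic and mitochondrial lists showed medians near 0. The 75 measured respiratory chain subunits ranged from -0.19 to 0.22 with a median of -0.02. Fatty acid oxidation genes had a median of 0.01, sterol, fatty acid and triglyceride synthesis genes 0.01, lipid droplet genes 0.04, cytochrome P450 genes -0.01 and fission and fusion genes -0.02. Acsl1 and Acsl4, which activate long-chain fatty acids, had differences of -0.10 each. The integrated stress response list had a median of -0.05, endoplasmic reticulum chaperones 0.02 and cytosolic heat shock genes -0.06.

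Single genes in these lists reached 2-fold. Rarb, a retinoic acid receptor, was lower with palmitate by 1.40 in control and by 0.15 in Drp1LiKO, so the difference was 1.25 that fell short of 2-fold under the other background correction. Cyp26a1, the enzyme that clears retinoic acid, was not well above background in control with palmitate, and its responses of at most -2.49 in control and -0.47 in Drp1LiKO put its difference at 2.02 or higher. Both are known targets of retinoic acid. Their list of retinoid genes had a median of 0.10, with 16 of 24 above 0, against 49.6% of all genes measured. Abcb1a, a drug efflux pump, had 2.25, which the Drp1LiKO palmitate array alone sets.

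**Figure D4:**
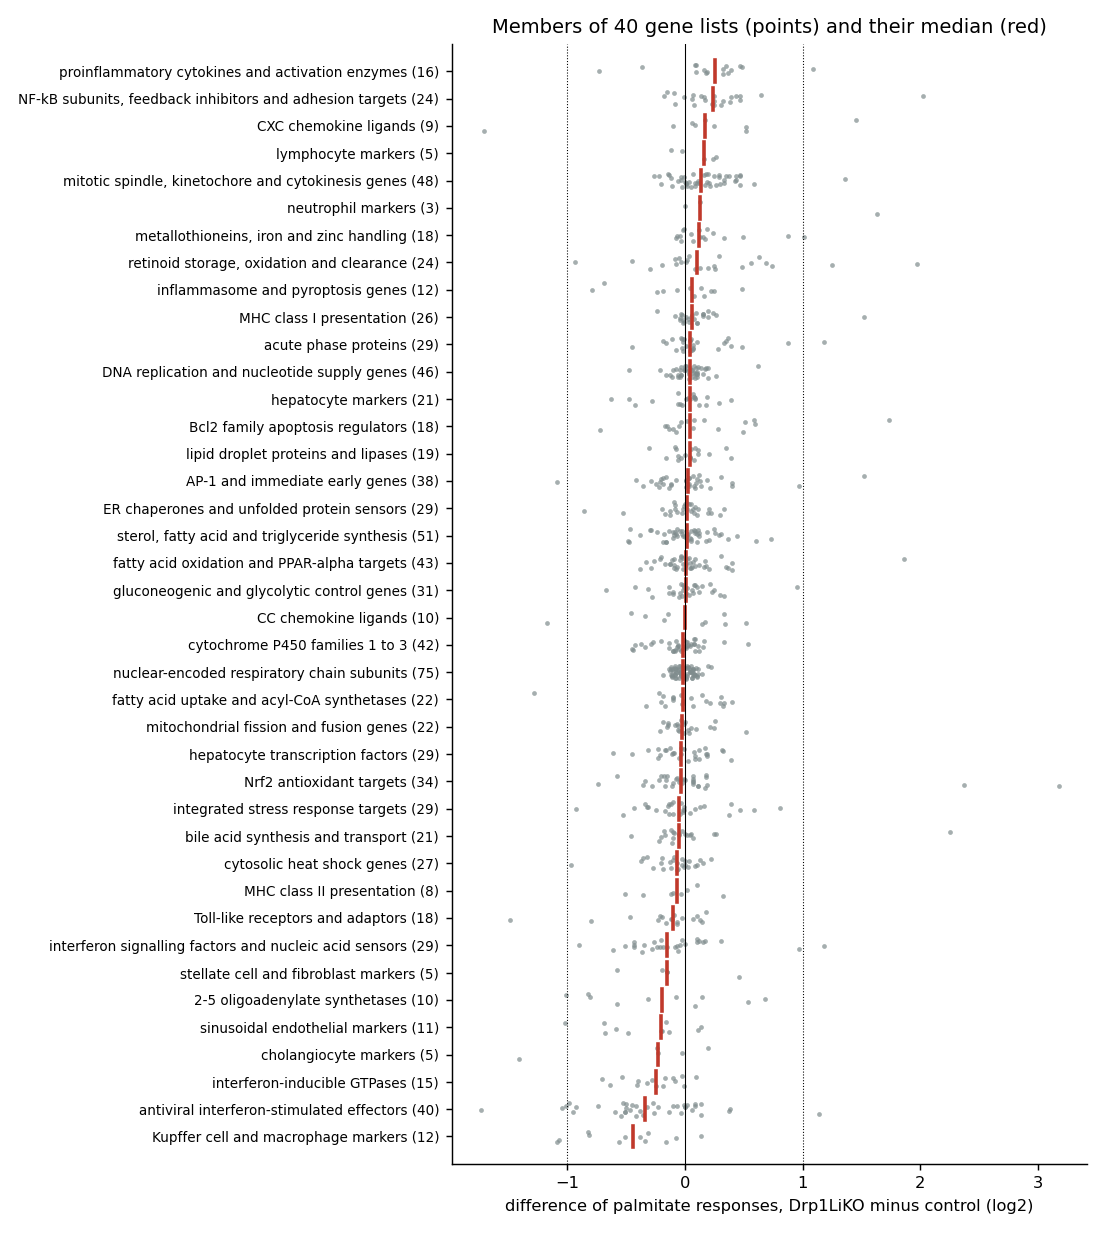
Difference of palmitate responses (x axis, log2, Drp1LiKO minus control) for the measured members of 40 gene lists, 1 point per gene, with the list median as a red bar and the number of measured members in brackets. Macrophage markers, antiviral effectors and interferon-inducible GTPases have the lowest medians, at -0.45, -0.34 and -0.25, and cytokine and NF-kB genes the highest, at 0.25 and 0.24.

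Many of the 297 differences came down to 1 array. A gene was said to rest on 1 array when that array lay at least 1 log2 unit from the median of the other 3 and those 3 spanned under 0.7. This held for 139 of the 297 genes, 46.8%. The untreated Drp1LiKO array alone set 94 of them, against 19 for untreated control, 16 for control with palmitate and 10 for Drp1LiKO with palmitate. Without such genes 158 remained, of which 60 had a positive difference and 98 a negative one.

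Those genes hold the extremes of the comparison. Prmt1, the main arginine methyltransferase, stood at 4.72, 1.61, 4.93 and 5.01 in the order untreated control, untreated Drp1LiKO, control with palmitate and Drp1LiKO with palmitate. Its difference of 3.19 is a low value on the untreated Drp1LiKO array, with the other arrays close together. Prrc2a, with the most negative difference at -3.24, stood at -2.44, 0.88, -2.59 and -2.51, a high value on the same array.

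Tkt at 2.37, Dnajc7, a co-chaperone of Hsp70, at 2.51, Cyp39a1, an oxysterol hydroxylase, at 2.53 and Ccdc71 at 2.54 were low on the untreated Drp1LiKO array alone. Hebp1, a heme-binding protein, at -2.92, Rab5c, a GTPase of early endosomes, at -2.90 and Mest at -2.67 were high on it alone. Of the 15 largest differences with a gene symbol in each direction, 8 higher and 10 lower ones rested on this array.

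A second probe repeated some of these single-array values and not others. Of the 28 genes set by the untreated Drp1LiKO array that had another measured probe, 11 had one with the same sign and at least 2-fold, and 16 had one at 0.5 or more. Prmt1 gave 3.39 on its other probe, Dnajc7 2.29, Bax, a promoter of apoptosis, 1.82 beside 1.73, and Dhrs4, a retinal reductase, 1.67 beside 1.97. The probes of Map3k10, a kinase upstream of JNK, disagreed, with 2.19 on the main one and 1.84 and -2.18 on the others. Agpat3, an acyltransferase of phospholipid synthesis, had 0.08 on its main probe and 3.70 on a second one that was low on the untreated Drp1LiKO array alone.

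Of the other 18 counted genes with another measured probe, 3 had one of the same sign and at least 2-fold. In all 49 of the 297 genes could be read this way and 14 had such a probe. Probes of a gene share 1 RNA, so this covers probe error and not the spread between cultures. Across 5577 genes the main probe and the mean of the others correlated at 0.25 (Pearson's r across genes, which are not independent replicates), as a description of values that mostly lie near 0.

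The genes set by the untreated Drp1LiKO array were not dim. Their median level was 0.39, against 0.76 for all genes measured, -2.82 for genes set by another array and -2.73 for counted genes set by no single array. Spots lit on 1 array alone were found near 25.5% of them (at least 2 of 24 neighbours), against 23.7% of all genes and 51.1% of genes set by another array. Chromosome 17 held 10 of the 94, 10.6% against 5.15% of all genes measured. Chromosome 7 also held 10, against 7.48% of all genes, and chromosome 2 held 9, 9.57% against 7.67%. Within chr17:33441423-35959587 (mm9 by the array annotation) lay 7 of the 94, among them Tap2, Ager, Clic1, Prrc2a and Ier3, of 119 genes measured there. This interval was chosen after the values were seen and was given no test.

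**Figure D5:**
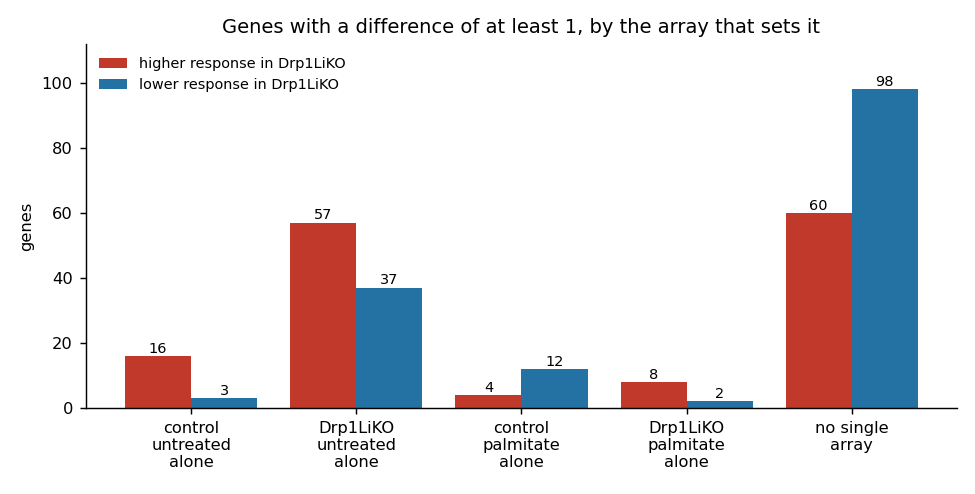
Number of genes with a difference of responses of at least 1 in size (y axis), split by the array that alone sets the difference and by direction. The untreated Drp1LiKO array alone sets 57 higher and 37 lower ones, and 60 higher and 98 lower ones rest on no single array.

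The 158 genes that no single array set took several shapes. In 24 control was higher with palmitate by at least 2-fold while Drp1LiKO stayed within 2-fold, as in Rsad2 and Cxcl10, and in 18 the reverse held with a higher response, as in Traf1 and Bst2. In 13 the Drp1LiKO response was the 1 to fall by at least 2-fold, as in Cldn4 and Areg, and in 8 control was the 1 to fall, as in Rarb. For 90 genes, 58 lower and 32 higher, neither response reached 2-fold and the difference came from opposite small moves. Of these 90, 70 had a mean level under -2, 77.8% against 52.2% of the 297 and 20.1% of all genes.

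St8sia3, a brain-type sialyltransferase, was 1 of 2 features with responses of at least 2-fold in opposite directions. It stood at -2.83 in untreated control, -3.30 in untreated Drp1LiKO, -1.44 in control with palmitate and -4.31 in Drp1LiKO with palmitate. Its responses were 1.40 in control and -1.01 in Drp1LiKO, so the difference was -2.41, with the Drp1LiKO palmitate level close to background. Aunip, an Aurora kinase A partner, at 2.23, and Syngr4 at -2.23 were other large values not set by 1 array. Aunip stood at -3.86 in untreated Drp1LiKO, against 0.07 and 0.16 in control.

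Genes measured on some arrays only can still bound a difference. Of 936 such genes with a bound, 248 had an upper limit and 688 a lower one. Of the 248, 60 had a difference of -1 or lower, and of the 688, 55 had one of 1 or higher. Among the 16619 genes measured on all arrays these shares were 0.915% and 0.872%. The bounded genes passed another filter, being above background on some arrays only, so the shares are not alike in kind. Genes with a bound are not part of the 297.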

How the data were processed

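RNA of 4 primary mouse hepatocyte cultures was hybridised, 1 culture per array, to Agilent SurePrint G3 Mouse 8x60K arrays in 1 colour (Cy3). The deposited scanner tables hold intensity values per spot, and gProcessedSignal, the scanner software's background-corrected intensity, was used. Per the file headers the software was Feature Extraction 10.7.1.1, while the submitters' processing notes name 9.5.1.1. The authors also deposited a table of linear intensity values whose columns share 1 distribution, used here as an alternative. RNA extraction is described differently by the labels and the study's methods, which name different kits.

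Control spots and outlier spots were left out, spots of a probe were averaged, and log2 values were set relative to the 75th percentile of each array. Those percentiles were 485, 542, 424 and 468 intensity units for untreated control, untreated Drp1LiKO, control palmitate and Drp1LiKO palmitate, and 48.2%, 51.1%, 44.7% and 48.2% of 56605 probes were well above background, with no spot saturated. The number of arrays limits the precision. Where a probe was not well above background on an array, its level was replaced by the higher of its own signal and the lowest signal among probes well above background there, which gives a bound. Gene names are those of the array files, and 13283 of the 16619 genes matched a RefSeq gene.

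No test was possible with 1 array per group, and a difference of at least 1 log2 unit was counted. Genes named in the text are the 15 largest with a symbol in each direction, those whose probes all reached 1, list members that reached 1, and genes of the study's question, and other list members are given as examples. The 40 gene lists, the comparison and the named genes were chosen with earlier results of these data known. The calculation was tested on simulated data with 200 changed genes. Alternatives were another background correction (normexp in limma 3.58.1, R 4.3.3, offset 50), quantile normalization, scaling to the median, the authors' table, the mean of probes, other filters and other fold sizes. Tables were handled in Python 3.11.15 with pandas 2.3.3 and numpy 2.4.6. A few genes that meet the rule for named genes are not reported here.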

Additional observations from a re-analysis of the deposited data

Results flagged for a closer look

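St8sia3 and an unnamed transcript on chromosome 4 responded in opposite directions in the 2 genotypes, each by at least 2-fold. St8sia3 had a response of 1.40 in control and -1.01 in Drp1LiKO, so the difference was -2.41. The transcript stood at -4.02 in untreated control, -2.04 in untreated Drp1LiKO, -2.74 in control with palmitate and -3.13 in Drp1LiKO with palmitate, with responses of 1.28 and -1.09 and a difference of -2.36. With 1 array per group the difference was not tested for either.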

How the results depend on the processing

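The 63 genes of at least 2-fold that meet the naming rule kept their direction under the other scalings, the other background correction and the mean of probes, though single probes of Map3k10 differ in sign, and the median over all genes moved by under 0.01. The count of 297 genes (145 higher, 152 lower) was 131 (77 higher, 54 lower) with normexp background correction, 2225 (1090 and 1135) when 1 array above background was enough for a probe, and 4899 (2337 and 2562) with no filter. It was 1179 at 1.5-fold and 87 at 3-fold. Leaving out the genes that 1 array alone sets, an alternative chosen after seeing the data, gave 158 (60 higher, 98 lower), so the share with a higher response was 38.0% there and 58.8% with normexp, against 48.8%. With quantile normalization it was 293, with the authors' values 291, with the mean of probes 288, and without genes near lit spots 225. Counted genes with a second probe of the same sign numbered 14 at 2-fold and 24 at 0.5 log2 units. Of these 63 genes, 48 stayed there with normexp, 59 with quantile normalization, 59 with the authors' values and 60 with the mean of probes, where Map3k10, Rsad2 and Lpl fell short. The cause of these shifts was not tested. No paired analysis was possible because each group has 1 array, and for the same reason no array could be left out. Genes near background carry the least certain values.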
